A study of Mus musculus with 44 samples.

Results

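The genes beside the locus of microRNA-150 (miR-150) were described in cultured mouse CD4 T cells. The members were the 5 genes Gm45552, Rpl13a, Flt3l, Fcgrt and Rcn3, picked by symbol from the 55416 rows of the count table because they lie next to the miR-150 hairpin. Each symbol matched 1 row, and all 5 passed the filter on low counts. The groups were 3 cultures by 3 genotypes: Treg KO, Treg KI, Treg WT, Th1 KO, Th1 KI, Th1 WT, Th0 KO, Th0 KI and Th0 WT, with 5 libraries each except Th0 KI with 4, 44 in all. The genotypes are named only as miR-150 knockout (KO), knock-in (KI) and wild type (WT), and the labels do not say what the knock-in carries. Spleens of C57BL/6NTac mice gave the cells, which were sorted as naive CD4 T cells and cultured over 3 days on antibodies against CD3 and CD28. Th0 cultures had nothing further, Th1 cultures also had interleukin-12 with an antibody to interleukin-4, and Treg cultures had TGF-beta 1 with an antibody to interferon-gamma. A library is written with its culture, genotype and number, as in Treg WT 4. The mice's age is not stated, nor what a number marks, so p-values measure the spread between these libraries, which may in part be technical.

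A microRNA gene is transcribed as a longer RNA that is cut to a hairpin and then to a short mature strand, which pairs through its seed with messenger RNAs and lowers their output. miR-150 is abundant in resting lymphocytes and falls after activation, and Myb is its best known target. Where a microRNA gene is edited in place, a stretch of the chromosome changes with it, and the level of flanking genes can show whether genotypes differ beyond the microRNA itself.

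The hairpin gene Mir150 lies at chr7:45121757-45121821 on the plus strand of GRCm38 in GENCODE release M21. Its 3' strand is printed to mark the locus, with the seed, bases 2 to 8, in capitals. It maps to chr7:45121798-45121819 on the plus strand of GRCm38.p6 and is taken from RefSeq.
mmu-miR-150-3p: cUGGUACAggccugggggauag

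Mir150 itself was near the limit of detection in these libraries of poly(A) RNA. It received 0 counts over the 15 KO libraries, 7 over the 14 KI libraries and 6 over the 15 WT libraries. No library held more than 2 counts. The floor of 3 counts stood at 0.0218 to 0.0493 CPM, the count scaled to library size in the usual way, depending on the library, and reflects only counting error. Every library was therefore under the floor, and Mir150 did not pass the filter, so these counts do not check the genotype labels.

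Gm45552 starts 96 bp past the hairpin, at chr7:45121917-45124144 on the plus strand, and is annotated as an antisense transcript with 778 exon bases. Rpl13a (chr7:45125558-45128761) and Flt3l (chr7:45129788-45136432) follow on the minus strand, 3737 and 7967 bp away. On the other side of the hairpin, Fcgrt (chr7:45092990-45103851) and Rcn3 (chr7:45082913-45092221) lie 17906 and 29536 bp away, also on the minus strand. These positions are those of GENCODE M21. The annotation behind the count table is not named, and 3333 of its 55416 identifiers were absent from M21.

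The promoters of Flt3l, the member that changed most clearly between cultures, and of Rpl13a, the member with the smallest change in Treg against Th0, are shown because the genes are neighbours with unlike behaviour. Each window of 300 bases, most of it before the start site, comes from RefSeq, GRCm38.p6, on the minus strand. Capitals mark CCAAT, the CCAAT box, and GGCGG, the core of a GC box, on either strand, and no match overlapped another.
Flt3l, chr7:45136383-45136682, minus strand: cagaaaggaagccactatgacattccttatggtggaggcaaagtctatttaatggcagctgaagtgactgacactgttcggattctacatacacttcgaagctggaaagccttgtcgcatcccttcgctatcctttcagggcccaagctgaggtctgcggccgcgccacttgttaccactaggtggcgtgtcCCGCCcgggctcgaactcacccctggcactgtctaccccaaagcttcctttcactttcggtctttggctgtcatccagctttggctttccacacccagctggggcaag
Rpl13a, chr7:45128696-45128995, minus strand: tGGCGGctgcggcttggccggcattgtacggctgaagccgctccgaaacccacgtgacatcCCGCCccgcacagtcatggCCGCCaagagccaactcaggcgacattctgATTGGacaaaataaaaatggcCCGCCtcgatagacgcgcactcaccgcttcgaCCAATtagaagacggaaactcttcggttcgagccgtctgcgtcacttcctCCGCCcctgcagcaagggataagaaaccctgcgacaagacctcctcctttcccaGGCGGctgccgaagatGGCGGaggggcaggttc

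The Flt3l window held 1 GGCGG match and no CCAAT, with 54.3% G and C and 12 CpG. The Rpl13a window held 7 GGCGG and 2 CCAAT matches, with 60.3% G and C and 27 CpG. Over the 32851 mouse promoters of the table, 48.8% held GGCGG and 37.4% held CCAAT, and the median was 52.7% G and C with 7 CpG. The Rcn3 window held 2 matches of each motif and the Fcgrt window held none. Of 3 further motifs searched on both strands, CACGTG (7.15% of all promoters) matched once, in Rpl13a, and TATAAA (13.6%) and TTCCGG (14.9%) matched in none of the 4 member windows. A match is a description of letters, not a binding site. RefSeq promoters were found for 4 of the 5 members, Gm45552 being the exception.

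Library totals ran from 60815821 to 137415965 counts. The libraries WT 4, KO 2 and KI 3 reached higher levels of markers of other cells, with ranges that overlapped those of the rest. The labels do not mark these 3 numbers. They were set apart from values of these same data and grouped by Cd8a, so high Cd8a in them is part of the choice and no separate result. Their summed level of 6 CD8 T and NK cell markers ran from 64.3 to 707 CPM, against 18.2 to 178 CPM in the other 35 libraries, and that of 6 B cell markers from 63.3 to 1155 CPM, against 13.6 to 415 CPM. For 10 myeloid and dendritic cell markers the medians were 47.2 CPM and 26.9 CPM. The 7 CD4 T cell markers were present in every library, at 1240 to 2072 CPM in those libraries and 1631 to 2684 CPM in the others. The summed level of 5 endothelial and stromal cell markers ran from 21.7 to 199 CPM over all 44. Pecam1 alone ran from 21.2 to 199 CPM, and of the 5 only Col3a1 was at 0 in every library.

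Per kilobase of exon, Rpl13a had the highest mean level of the members, at 541 CPM per kb over all libraries. Flt3l followed at 9.53, Rcn3 at 1.56, Gm45552 at 1.48 and Fcgrt at 0.17 CPM per kb. The ranges of Rcn3 and Gm45552 overlapped. The plot of levels by library shows the members in all 9 groups.

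**Figure D1:**
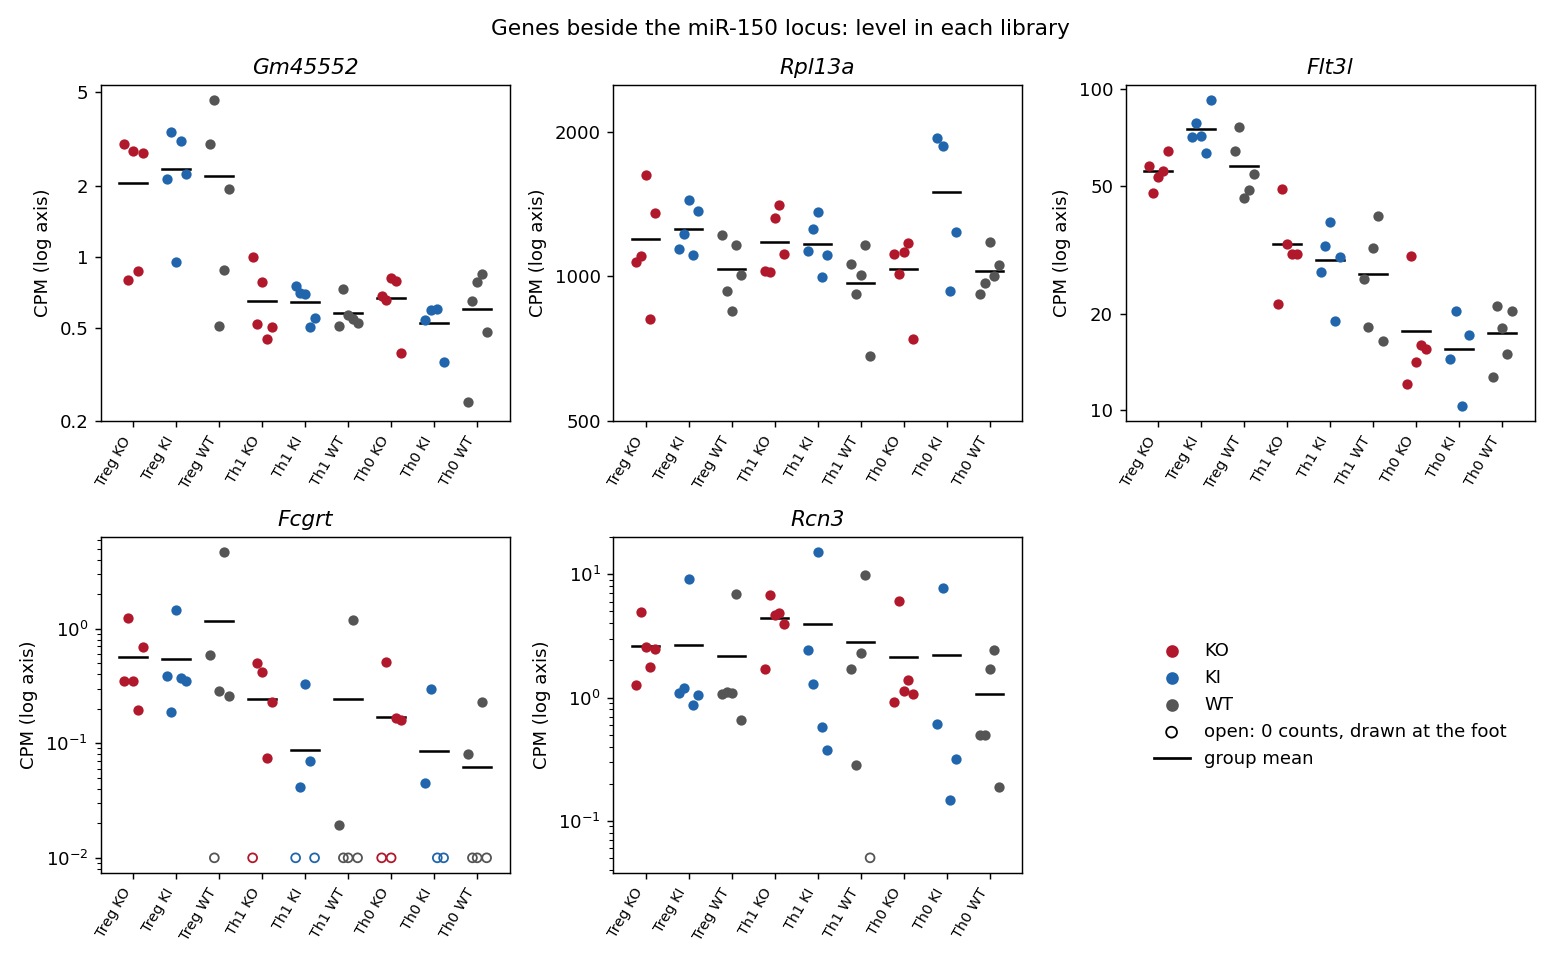
Level of each member in every library, in CPM with TMM factors on a log axis, by culture and genotype. Points are libraries coloured by genotype, lines are group means, and open points are libraries with 0 counts. Flt3l falls in steps over Treg, Th1 and Th0, and Gm45552 is high in most Treg libraries. In several but not all groups a single library of Fcgrt or Rcn3 lies far above the rest.

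Flt3l encodes the ligand of the receptor FLT3, a growth factor made by T cells among others that drives the formation of dendritic cells. It was highest in Treg cultures, lower in Th1 and lowest in Th0 in all 3 genotypes. Over genotypes it averaged 63 ± 13.2 CPM in Treg (SD, n = 15), 29.6 ± 8.86 CPM in Th1 (n = 15) and 17 ± 5.04 CPM in Th0 (n = 14).

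In KO cultures the 5 Treg libraries of Flt3l stood at 57.8, 47.4, 53.2, 55.6 and 64.2 CPM, the 5 Th1 libraries at 21.4, 48.8, 32.9, 30.6 and 30.6 CPM, and the 5 Th0 libraries at 12.1, 30.3, 14.1, 16 and 15.5 CPM. All Treg KO libraries lay above all Th0 KO libraries, while Th1 KO 2 reached above the lowest Treg KO library. In KI cultures Flt3l stood at 71, 78.6, 71.8, 63.4 and 92.5 CPM in Treg, at 26.9, 32.4, 38.6, 19 and 30 CPM in Th1, and at 14.4, 20.4, 10.3 and 17.1 CPM in Th0. Here Treg lay clear of both other cultures, and Th1 and Th0 overlapped. In WT cultures it stood at 64.4, 76.1, 45.9, 48.5 and 54.6 CPM in Treg, at 25.6, 18.2, 32.1, 40.4 and 16.4 CPM in Th1, and at 12.7, 21.1, 18.1, 15 and 20.4 CPM in Th0. Treg was again clear of both, with Th1 and Th0 overlapping.

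Tests were edgeR's quasi-likelihood test, with p adjusted by Benjamini-Hochberg over the 21873 genes tested and called at 0.05, and log2 fold changes are given with their SE. Averaged over genotypes, Flt3l rose in Treg against Th0 by 1.89 ± 0.14, a 3.70-fold change (adjusted p = 1.98e-13). Against Th1 it rose by 1.08 ± 0.14 (adjusted p = 1.82e-08), and in Th1 against Th0 by 0.81 ± 0.14 (adjusted p = 3.37e-05). The step Treg over Th0 was called in each genotype, at 1.66 ± 0.24 in KO, 2.28 ± 0.27 in KI and 1.73 ± 0.24 in WT. The step Th1 over Th0 was called in KO, at 0.90 ± 0.24, and in KI, at 0.92 ± 0.25, but not in WT, at 0.60 ± 0.24 (edgeR adjusted p = 0.187). The difference between KI and WT in that step was 0.32 (95% interval -0.38 to 1.01), so the genotypes were not shown to differ in it. The call in KO was lost without Th1 KO 2, at 0.73, and the call in KI without any of 4 libraries, Th0 KI 1, Th0 KI 4, Th1 KI 2 or Th1 KI 3, at 0.77 to 0.90. The call of Treg over Th1 in KO, at 0.76 ± 0.24, was lost without Th1 KO 1, at 0.61.

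In Th1 cultures the libraries WT 4, KO 2 and KI 3 ran from 38.6 to 48.8 CPM of Flt3l and the other 12 from 16.4 to 32.9 CPM. Cd8a was at 21.3 CPM or more in the same libraries and ran from 1.34 to 31.7 CPM in the other 12, so the ranges of Cd8a overlapped. The part of other cells in this was not tested, and without those numbers the averaged changes of Flt3l were 2.05 in Treg against Th0, 1.26 in Treg against Th1 and 0.79 in Th1 against Th0, called in each.

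A read-through gene, Gm45713, shares 856 exon bases with Flt3l, 22.1% of the exon bases of Flt3l. Gm45713 had 0 counts in 38 libraries and up to 639 in a library, and in each of the other 6 libraries all its counts came from 1 of the 2 lanes. With its counts added to Flt3l, an alternative chosen after seeing the data, the Th1 step in KI was 0.81 (edgeR adjusted p = 0.0563), and the other calls on Flt3l remained.

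Of 10 tested genes among FLT3, related receptors, their ligands and the proteases that shed them, 5 rose and 3 fell in Treg against Th0, averaged over genotypes, with a median log2 fold change of 0.16 beside 0.02 for all genes tested, of which 55.6% were called. Flt3 itself, the receptor, averaged 1.70 CPM in Treg, 5.82 CPM in Th1 and 2.25 CPM in Th0. Its log2 fold change was -0.50 ± 0.42 in Treg against Th0 and did not pass, and 1.45 ± 0.43 in Th1 against Th0, which did (edgeR adjusted p = 0.00919). Csf1r, the receptor for the growth factor CSF1, rose by 2.04 ± 0.56 in Treg against Th0, at a level of only 0.508 CPM against 0.179 CPM. Il34, another ligand of that receptor, averaged 0.198 CPM in Treg and 0.0115 CPM in Th0, and Kitl, the ligand of KIT, averaged 0.00206 CPM in Treg and 0.0758 CPM in Th0. Both were called, but Il34 in Th0 and Kitl in Treg lay under the floor, and no fold is given for them. Flt3 and Csf1r are also markers of dendritic and myeloid cells, whose part in these values was not tested.

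Gm45552, a transcript with no known role, was also higher in Treg cultures. It averaged 2.20 ± 1.19 CPM in Treg (SD, n = 15), 0.622 ± 0.151 CPM in Th1 (n = 15) and 0.601 ± 0.183 CPM in Th0 (n = 14). Averaged over genotypes, its log2 fold change was 1.88 ± 0.25 in Treg against Th0 (edgeR adjusted p = 4.96e-08) and 1.82 ± 0.24 in Treg against Th1 (edgeR adjusted p = 5.84e-08). Between Th1 and Th0 it was 0.06 ± 0.25, with a 95% interval of -0.43 to 0.56.

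The Treg libraries were split in their level of Gm45552. The 5 Treg KO libraries stood at 3.00, 0.797, 2.81, 0.873 and 2.76 CPM, the 5 Treg KI libraries at 2.13, 3.39, 0.945, 3.09 and 2.24 CPM, and the 5 Treg WT libraries at 3.00, 4.62, 0.506, 0.879 and 1.94 CPM. Thus Treg KO 2, KO 4, KI 3, WT 3 and WT 4 lay within the range of the other cultures, whose highest library was at 1 CPM, and the other 10 Treg libraries lay above it. The lanes of those 5 held 46 and 36, 68 and 4, 84 and 29, 29 and 24, and 76 and 10 counts. Lane totals in them stood at ratios of 3.81 to 3.88, so the low values of Gm45552 were not even between lanes. Within genotypes the change in Treg against Th0 was 1.62 ± 0.42 in KO, 2.17 ± 0.47 in KI and 1.86 ± 0.42 in WT, called in each. Foxp3, the lineage factor of regulatory T cells, was low in 4 of those 5 libraries, at 77.4 CPM in Treg KO 2, 62 in Treg KI 3, 159 in Treg WT 3 and 47.7 in Treg WT 4, but stood at 411 CPM in Treg KO 4. In the other 10 Treg libraries Foxp3 ran from 376 to 596 CPM. Over all 44 libraries log2 CPM of Gm45552 correlated with that of Foxp3 at r = 0.82 and with that of Ifng at r = -0.79, a description in which culture and library are shared. The part of the unequal Foxp3 levels in the Gm45552 result was not tested.

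The kit marks strand, but how the counting treated strand is not stated in the labels, and so reads of Gm45552 may not be fully told apart from reads of the opposite strand.

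Fcgrt encodes the heavy chain of the neonatal Fc receptor, which pairs with beta-2 microglobulin and returns immunoglobulin G and albumin from endosomes to the blood. It was close to the floor, with a median of 16 counts a library and 0 counts in 14 of 44. In 13 more libraries 1 lane held 0 counts while the other held up to 31. This was so in 1 library each for Gm45552 and Rcn3, so lanes at 0 were more frequent for Fcgrt. It averaged 0.759 ± 1.15 CPM in Treg (SD, n = 15), 0.191 ± 0.324 CPM in Th1 (n = 15) and 0.107 ± 0.154 CPM in Th0 (n = 14).

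Of the Treg libraries 14 of 15 had counts of Fcgrt, against 9 of 15 in Th1 and 7 of 14 in Th0. The Treg libraries stood at 0.351, 1.24, 0.352, 0.194 and 0.698 CPM in KO, at 0.384, 0.186, 1.45, 0.372 and 0.351 CPM in KI, and at 0.584, 0, 0.287, 4.67 and 0.260 CPM in WT. In each genotype the highest Treg library was the one numbered KO 2, KI 3 or WT 4. Averaged over genotypes Fcgrt rose in Treg against Th0 by 2.87 ± 0.89 (edgeR adjusted p = 0.00608) and against Th1 by 2.04 ± 0.83 (edgeR adjusted p = 0.0351). Fitted folds of a gene with many 0 counts depend on how the model treats them, and the intervals were wide, 1.07 to 4.67 for Treg against Th0. Within genotypes only Treg WT against Th0 WT was called, at 4.22 ± 1.59, and not without Treg WT 4, at 2.21, nor without any one of Th0 WT 1, 2, 3 or 5, at 3.89 to 4.33. For KI the value of 2.61 ± 1.60 did not pass (edgeR adjusted p = 0.219), but with same-numbered libraries paired it was 3.74 (edgeR adjusted p = 0.01). Treg WT against Th1 WT, at 2.26 ± 1.42, did not pass; without Th1 WT 4 it was called (edgeR adjusted p = 0.00397), but every remaining Th1 WT library then lay under the floor, and no fold is given. The averaged call of Treg over Th1 was lost without Treg WT 4, at 1.36 (edgeR adjusted p = 0.155), and without any one of Treg KO 2, Treg KI 3, Th1 KO 4, Th1 KI 1, Th1 KI 2, Th1 KI 5 or Th1 WT 1, at 1.77 to 1.97. With DESeq2 its adjusted p was 0.0837.

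Cd8a, which the sort of CD4 cells should remove, moved with Fcgrt, at r = 0.79 in log2 CPM over 44 libraries. In Treg cultures Cd8a ran from 73.1 to 443 CPM in the libraries WT 4, KO 2 and KI 3, against 4.16 to 23.9 CPM in the other 12. Without all libraries of those 3 numbers Fcgrt was still called higher in Treg against Th0 (edgeR adjusted p = 0.000691) and against Th1 (edgeR adjusted p = 0.000749). Among those other libraries Fcgrt had a median of 0.351 CPM in Treg, 0.00974 CPM in Th1 and 0 in Th0, and no fold is given against medians under the floor. Fewer cells of a type and less RNA per cell cannot be told apart in these bulk samples.

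Of 8 tested genes among the partner of the neonatal Fc receptor, the classical IgG receptors and their adaptor, Fcgrt was the only one called in Treg against Th0, beside 55.6% of all genes, and the median log2 fold change was -0.05 beside 0.02 for all genes. B2m, the partner chain, stood at 1102 CPM in Treg and 1119 CPM in Th0, a log2 fold change of -0.04 ± 0.10 with an edgeR adjusted p of 0.769.

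Rcn3 encodes reticulocalbin 3, a calcium-binding protein of the secretory pathway in the CREC family. With all 44 libraries, and with neither a replicate block nor a term for Cd8a, it passed no test between cultures or genotypes. It averaged 2.48 ± 2.55 CPM in Treg (SD, n = 15), 3.73 ± 4.19 CPM in Th1 (n = 15) and 1.77 ± 2.30 CPM in Th0 (n = 14). In the libraries WT 4, KO 2 and KI 3 it ran from 4.94 to 9.22 CPM in Treg, 6.74 to 15.2 CPM in Th1 and 2.45 to 7.77 CPM in Th0. In the other libraries it ran from 0.656 to 2.55 CPM in Treg, from 0 to 4.89 CPM in Th1 and from 0.147 to 1.72 CPM in Th0. The 2 sets did not overlap within any culture. Cd8a correlated with Rcn3 at r = 0.65 over the 44 libraries, and its part in these levels was not tested.

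Averaged over genotypes the log2 fold change of Rcn3 was 1.10 ± 0.62 in Th1 against Th0 (edgeR adjusted p = 0.196), 0.53 ± 0.62 in Treg against Th0 and -0.57 ± 0.60 in Treg against Th1. Same-numbered Th1 and Th0 libraries of a genotype deviated together, and with the number as a block the first value was 1.10 with an edgeR adjusted p of 0.00647. The same block gave 0.96 in Treg against Th0 (edgeR adjusted p = 0.00881). There the deviations of same-numbered WT libraries correlated at 0.0919 to 0.335, the lowest just under the 0.1 asked of every pair. Without the libraries WT 4, KO 2 and KI 3, Th1 against Th0 was 1.36 (edgeR adjusted p = 0.0201), and without Th0 KI 3 alone it was 1.98 (edgeR adjusted p = 0.0161). The other members of the CREC family moved both ways in Treg against Th0: Rcn1 rose by 0.68 ± 0.07, while Sdf4, Calu and Rcn2 fell, at -0.63 ± 0.13, -0.45 ± 0.07 and -0.40 ± 0.05. Of 10 chaperones and folding enzymes of the endoplasmic reticulum, 8 fell and none rose, with a median of -0.44, in a comparison in which 55.6% of all genes were called. Hspa5, the chaperone BiP, fell by 1.09 ± 0.09 on the log2 scale, and Hyou1, Hsp90b1 and Pdia6 fell by 0.77, 0.73 and 0.67.

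Rpl13a encodes a protein of the large ribosomal subunit that, in human myeloid cells, also leaves the ribosome as part of the GAIT complex and represses translation of inflammatory messages. It passed no test between cultures, at 1162 ± 222 CPM in Treg (SD, n = 15), 1105 ± 185 CPM in Th1 (n = 15) and 1162 ± 340 CPM in Th0 (n = 14). The log2 fold change averaged over genotypes was -0.01 in Treg against Th0 (95% interval -0.21 to 0.19), 0.07 in Treg against Th1 (-0.12 to 0.27) and -0.08 in Th1 against Th0 (-0.28 to 0.12). The 3 other tested GAIT genes fell in Treg against Th0, Eprs by 1.03 ± 0.09, Gapdh by 0.52 ± 0.16 and Syncrip by 0.49 ± 0.08 on the log2 scale. Among 82 tested genes of cytosolic ribosomal proteins, 1 rose and 5 fell in that comparison, with a median of -0.05, beside 55.6% of all genes called. The largest falls were those of Rps27l at -0.95, Rpl36al at -0.43, Rps2 at -0.36 and Rpl27 at -0.24.

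The introns of Rpl13a hold small nucleolar RNA genes, which guide the chemical marking of ribosomal RNA. Of 4 listed, 3 were tested, and all 3 fell in Treg against Th0, beside 55.6% of all genes called, while their host gene did not pass. Snord34 fell by 0.82 ± 0.13 on the log2 scale, Snord35a by 0.65 ± 0.12 and Snord32a by 0.61 ± 0.12, at means of 0.530, 0.570 and 0.760 CPM in Treg and 0.965, 0.901 and 1.18 CPM in Th0. They also fell against Th1, by 0.64, 0.44 and 0.62 on that scale. Small nucleolar RNAs carry no poly(A) tail, so these counts may include unspliced Rpl13a RNA. Without the libraries WT 4, KO 2 and KI 3 all 3 still fell in Treg against Th0, with a median of -0.80.

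Over the 5 members, 3 were called in Treg against Th0 averaged over genotypes, where 55.6% of all genes tested were called. For Treg against Th1 3 were called beside 53.9% of all genes, and for Th1 against Th0 1 was called beside 29.1%. These shares lie near the background, so the counts say nothing particular to the locus. Within genotypes, 15 of 45 member values were called. Treg against Th0 gave 2 members in KO, 2 in KI and 3 in WT, beside 33%, 33.6% and 33.1% of all genes. Treg against Th1 gave 2 in each genotype, beside 30%, 32.8% and 30.8%. Th1 against Th0 gave 1 in KO, 1 in KI and 0 in WT, beside 9.51%, 5.92% and 3.04%. The plot of averaged log2 fold changes sets these values beside those between genotypes.

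**Figure D2:**
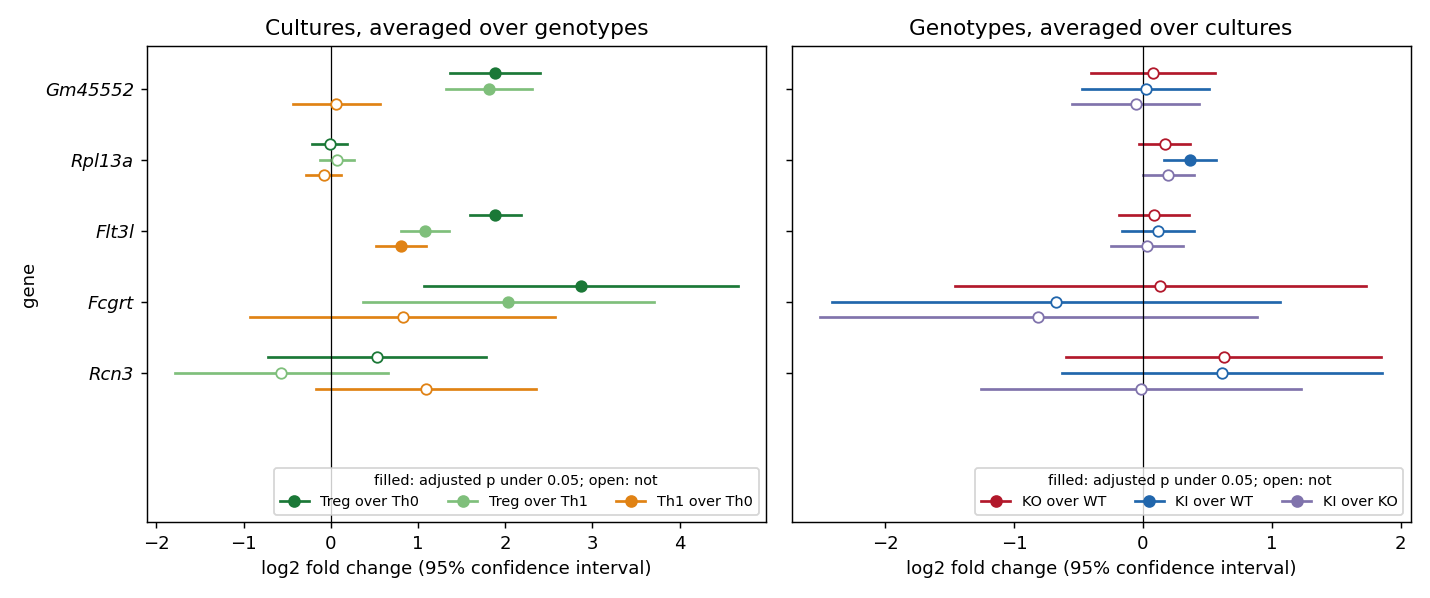
Log2 fold change of each member with its 95% confidence interval, between cultures averaged over genotypes (left) and between genotypes averaged over cultures (right). Filled points have an edgeR adjusted p under 0.05. The changes of Gm45552, Flt3l and Fcgrt in Treg lie clear of 0, and of the genotype differences only that of Rpl13a in KI over WT does so with a call.

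Whether genotype goes with a changed level of the genes beside the hairpin was read from the genotype comparisons. Within cultures no member was called: 0 of 45 values passed by edgeR and 0 by DESeq2, and 2 had an unadjusted p under 0.05. Over all genes tested the calls were also few, at 0.512% for Th0 KI against Th0 WT, 0.0274% for Th1 KI against Th1 WT, 0.169% for Treg KO against Treg WT, 0.0229% for Treg KI against Treg KO and 0 in the other 5 comparisons. Both values with a low unadjusted p were those of Rpl13a in Th0 cultures.

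Rpl13a stood at 1944, 1864, 935 and 1238 CPM in the 4 Th0 KI libraries, at 1115, 1014, 1124, 1176 and 741 CPM in Th0 KO, and at 920, 968, 1180, 1001 and 1054 CPM in Th0 WT. Th0 KI 1 and Th0 KI 3 lay above every other library of the study, and Th0 KI 4 lay within the range of both other genotypes. The log2 fold change was 0.55 ± 0.18 in Th0 KI against Th0 WT (edgeR adjusted p = 0.116) and 0.53 ± 0.18 against Th0 KO (edgeR adjusted p = 0.208). Without Th0 KI 4 they were 0.71 (edgeR adjusted p = 0.016) and 0.70 (edgeR adjusted p = 0.0363).

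Rpl13a has pseudogene copies in the genome, so its counts depend on how reads with several matches were treated, which the labels do not state. The annotated copy Rpl13a-ps1 held at most 13 counts a library, against at least 59603 for Rpl13a.

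Averaged over cultures, Rpl13a rose in KI against WT by 0.37 ± 0.10, a 1.29-fold change (edgeR adjusted p = 0.0136). It ran from 935 to 1944 CPM in KI with a median of 1233 (n = 14), from 741 to 1626 CPM in KO with a median of 1111 (n = 15) and from 685 to 1221 CPM in WT with a median of 1008 (n = 15), so the ranges overlapped. It was the 1 member called in this comparison, in which 12.9% of all genes were called. In KO against WT it was 0.17 ± 0.10, where no member and 0.768% of all genes were called, and in KI against KO 0.20 ± 0.10, where no member and 3.08% were called. Without the libraries WT 4, KO 2 and KI 3 the value was 0.32 (edgeR adjusted p = 0.115), and of all genes 303 were called in place of 2825. Averaging over cultures counts libraries of one number as separate, and with the number as a random block in limma the value was 0.35 with an adjusted p of 0.075. Of 82 ribosomal protein genes 37 rose and none fell in KI against WT, with a median of 0.23 beside 0.01 for all genes, and 1 rose without those libraries, with a median of 0.18.

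The intervals averaged over cultures show how far the mean levels of the other members could differ between genotypes. They count libraries of one number as separate, and so may be too narrow. Flt3l differed by 0.09 in KO against WT (95% interval -0.19 to 0.36), by 0.12 in KI against WT (-0.16 to 0.40) and by 0.03 in KI against KO (-0.25 to 0.31). Gm45552, the closest member to the hairpin, differed by 0.08 in KO against WT (-0.40 to 0.56) and by 0.02 in KI against WT (-0.47 to 0.52). For Fcgrt and Rcn3 the intervals were too wide to bound a difference, at -1.46 to 1.73 and -0.60 to 1.85 in KO against WT. Within single cultures the intervals were wider. For Flt3l in KI against WT they were -0.68 to 0.34 in Th0, -0.33 to 0.62 in Th1 and -0.09 to 0.86 in Treg. By group medians Rcn3 was higher in KO in every culture, at 2.49 CPM in Treg KO, 1.08 in Treg KI and 1.08 in Treg WT, at 4.65 CPM in Th1 KO, 1.28 in Th1 KI and 1.70 in Th1 WT, and at 1.12 CPM in Th0 KO, 0.463 in Th0 KI and 0.499 in Th0 WT. The groups overlapped in each culture. Its mean difference between KO and WT, 0.63 ± 0.60, did not pass (edgeR adjusted p = 0.638), and when the model held a term for Cd8a it was 1.31 (edgeR adjusted p = 0.0293). With that term Fcgrt was also called, at 1.83 in KO against WT, and 1178 of all genes were called there in place of 168. Leaving out the libraries WT 4, KO 2 and KI 3 instead gave 1.16 for Rcn3 (edgeR adjusted p = 0.111) and 2.45 for Fcgrt (edgeR adjusted p = 0.0863) in KO against WT, neither of them called. Over all libraries of a genotype the median of Fcgrt was 0.231 CPM in KO and 0.0195 CPM in WT, the latter under the floor. Its means went the other way, at 0.327 CPM in KO and 0.488 CPM in WT.

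No difference in a genotype effect between cultures passed for any member. Of 30 differences 0 were called by edgeR or DESeq2, and 0 had an unadjusted p under 0.05. Over all genes 0 were called as well in each of the 6 contrasts. For Flt3l, the difference of KI over WT between Treg and Th0 was 0.55 (95% interval -0.14 to 1.25).

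Further along the chromosome, 16 of the 20 nearest genes in RefSeq order, 10 on each side, passed the filter. None was called in KO against WT averaged over cultures, 4 rose in KI against WT and 1 in KI against KO, beside 0.768%, 12.9% and 3.08% of all genes. The median over these 16 was 0.10 in KO against WT and 0.09 in KI against WT. Among those that rose in KI against WT were Rpl13a, Prrg2 by 1.0 ± 0.24 (edgeR adjusted p = 0.00665) and Rras by 0.72 ± 0.23 (edgeR adjusted p = 0.0295). This averaged comparison counts libraries of one number as separate. With the number as a random block in limma 1094 of all genes were called in it, in place of 2825. Without the libraries WT 4, KO 2 and KI 3 there were 303. Prrg2 encodes a membrane protein with a Gla domain and Rras a small GTPase of the Ras family. Prrg2 had 0.84 ± 0.23 in KO against WT and did not pass (edgeR adjusted p = 0.0697), while Nosip, between it and Rcn3, had 0.07 ± 0.10 in KO and -0.02 ± 0.10 in KI. Rras had 0.51 ± 0.22 in KO against WT and did not pass (edgeR adjusted p = 0.226). The plot of neighbours by gene order shows these values along the locus.

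**Figure D3:**
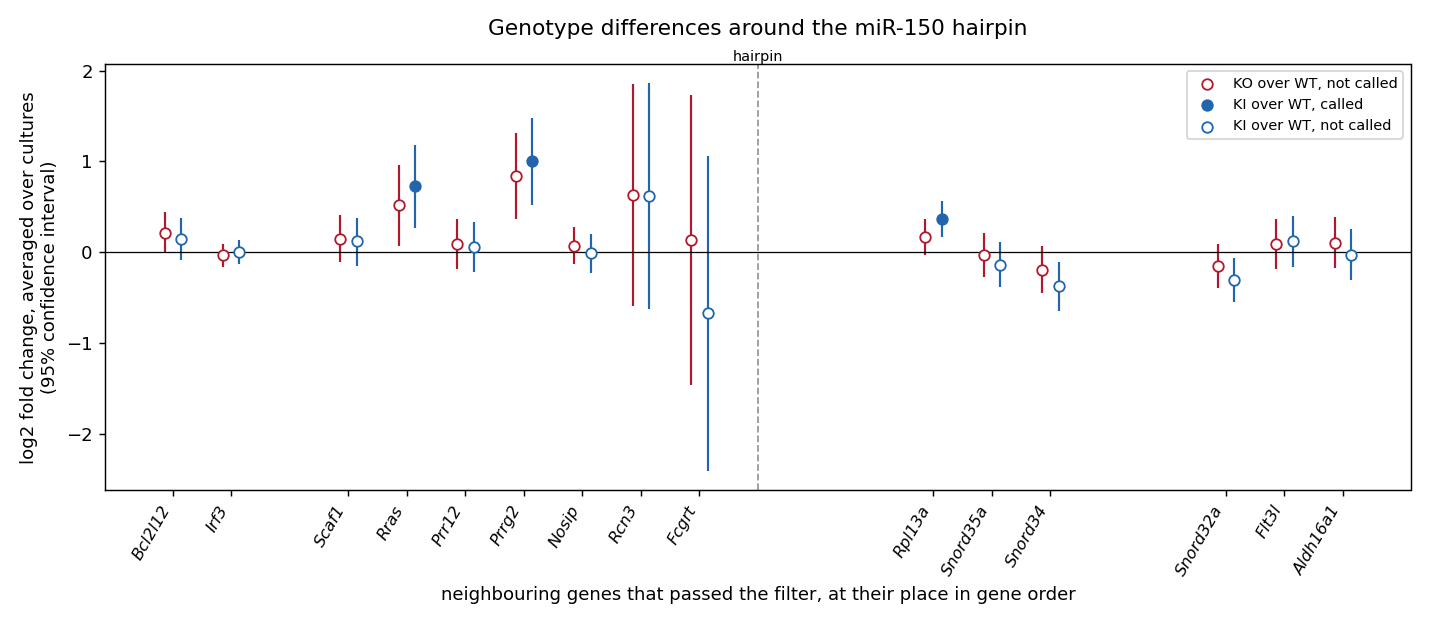
Log2 fold change, averaged over cultures, of KO over WT and KI over WT with 95% confidence intervals for the nearest genes that passed the filter and are reported here, in gene order on both sides of the hairpin. Filled points were called by edgeR. Called genes, all in KI over WT, are interleaved with genes that were not called. Most uncalled intervals include 0. Those of Prrg2 and Rras in KO over WT lie above 0, and those of Snord34 and Snord32a in KI over WT lie below 0.

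The genes most like each member in log2 CPM over the 44 libraries were found by Pearson correlation among genes averaging at least 0 in log2 CPM, as a description in which culture, library and depth are shared. For Rpl13a they were the ribosomal protein genes Rpl37 (r = 0.97), Rps14 (0.95) and Rpl13 (0.95). For Flt3l they were AI480526, Adamts10 and Nlrc3 (each r = 0.95 when rounded). For Gm45552 they included Bambi-ps1 (0.92) and Tmem234 (0.91). Fcgrt was most like Klrd1 (0.84), a receptor gene of NK and CD8 T cells, then Coro2a (0.81) and C1qtnf6 (0.80), and Rcn3 was most like Neil1 (0.88), Grb2 (0.87) and Plin3 (0.87). Among the members the highest correlation was that of Gm45552 with Flt3l (0.71), followed by Fcgrt with Rcn3 (0.63) and Flt3l with Fcgrt (0.60). Rpl13a and Flt3l, which are adjacent, had r = 0.18.

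**Figure D4:**
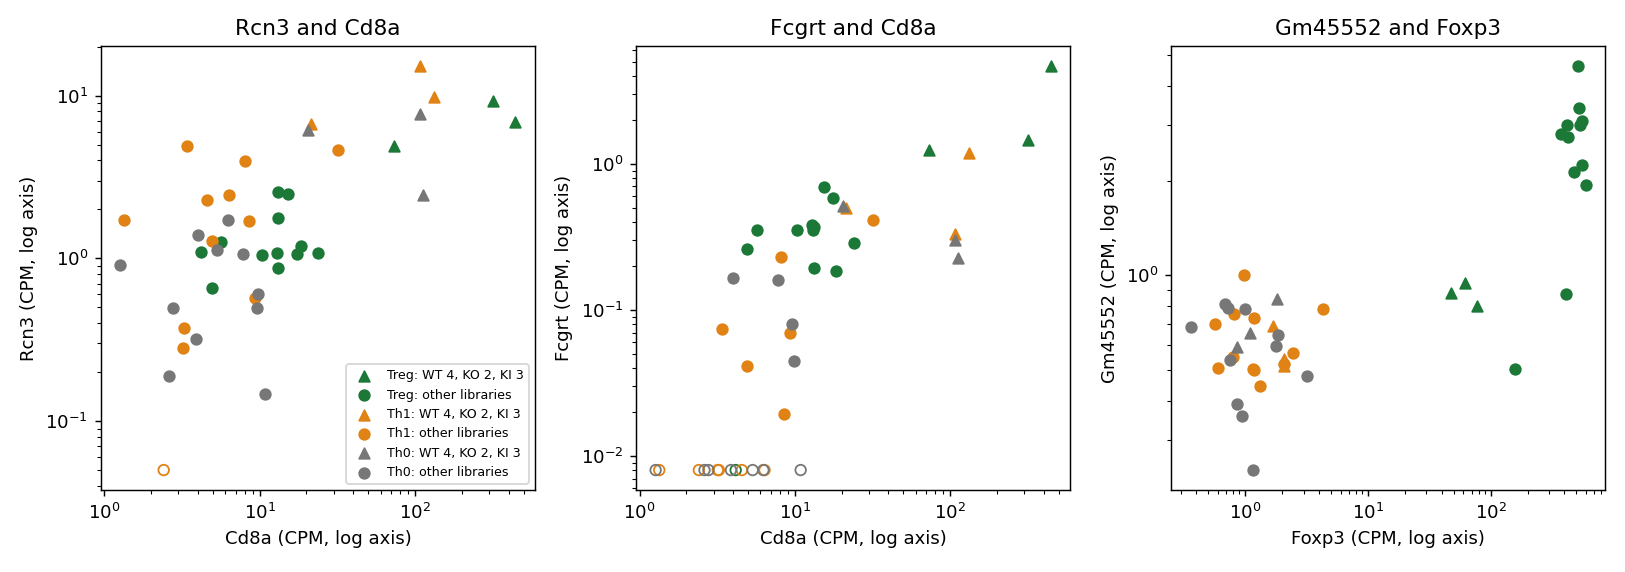
Rcn3 and Fcgrt against Cd8a, and Gm45552 against Foxp3, in CPM on log axes for all 44 libraries. Colour is the culture, triangles are the libraries WT 4, KO 2 and KI 3, and open points are libraries with 0 counts. The triangles lie above the other libraries in Rcn3 within each culture and in Fcgrt within Treg and Th0, and the Treg triangles lie low in both Gm45552 and Foxp3.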

How the data were processed

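Polyadenylated RNA of 44 cultures was sequenced as strand-marked libraries, per the labels' protocols. The authors deposited whole-number counts per gene in 1 column per library and lane, and the 2 lanes of each library were summed. Which tool, annotation and strand setting made the counts is not stated. A human assembly is named in the submitters' processing notes, although the identifiers are those of mouse. Some low values recur (Snord35b has exactly 1 count in all 88 lane columns), so low counts may be estimates. A second, normalised table was not used.

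Libraries of a group were not copies of each other: the median chi-square per gene was at least 4.36 in all 86 pairs. Counts were fitted with edgeR 4.0.16 (R 4.3.3), with TMM factors, the default filter by group, 1 model of 9 group means, the quasi-likelihood test and Benjamini-Hochberg adjustment over 21873 genes. DESeq2 1.42.0 and limma 3.58.1 gave alternatives. The fit was also run on simulated data of independent libraries, with changes only in genes above the mean levels of Gm45552, Fcgrt and Rcn3. That run therefore does not cover those members or libraries that share a number. The members and lists were chosen with earlier results of these data known. Cytosolic ribosomal proteins were taken by symbol pattern. Named beside the members were the 3 nearest tested genes each side and any neighbour called between genotypes, 3 genes most like each member, and up to 4 genes a list called in Treg against Th0. Flt3 and B2m were added after their values were seen, and some genes that this rule names are not reported here. The annotation at hand lacked 3333 of the 55416 identifiers, so neighbours were taken by RefSeq order in place of a distance. Same-numbered libraries within a genotype were checked for pairing by correlating deviations from group means. For Th1 with Th0 every pair was over 0.1 in KO (0.185 to 0.494), KI (0.147 to 0.552) and WT (0.245 to 0.422), and these were read as pairs from the data, since the labels leave the numbers unexplained. For Treg the lowest pair was 0.0816. Across genotypes no set of pairs passed.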

Additional observations from a re-analysis of the deposited data

Results flagged for a closer look

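Of 45 groups of 4 or 5 libraries, 13 had a library set far apart from the rest of its group by a gap criterion. For normally distributed values chance meets it in about 1 of 20 groups. CPM near 0 are not so distributed, and the groups of different members share libraries, so the 13 cannot be set against that rate. In Treg cultures these were Fcgrt in Treg KI 3 at 1.45 CPM and in Treg WT 4 at 4.67 CPM, and Rcn3 in Treg KI 3 at 9.22 CPM and in Treg WT 4 at 6.93 CPM. In Th1 cultures they were Fcgrt in Th1 KI 3 at 0.33 CPM and in Th1 WT 4 at 1.19 CPM, Rcn3 in Th1 KI 3 at 15.2 CPM and in Th1 WT 4 at 9.88 CPM, and Gm45552 in Th1 WT 2 at 0.732 CPM. In Th0 cultures they were Fcgrt in Th0 KI 3 at 0.3 CPM, Rcn3 in Th0 KO 2 at 6.12 CPM and in Th0 KI 3 at 7.77 CPM, and Flt3l in Th0 KO 2 at 30.3 CPM. All but the Gm45552 value came from libraries numbered WT 4, KO 2 or KI 3, and each lay above the rest of its group. Cd8a, by which these numbers were set apart, ran from 20.5 to 443 CPM in the same libraries, and its part in these values was not tested.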

How the results depend on the processing

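Over 3948 recomputed member values none reversed a call, 27 lost and 27 gained one, and 308 changed sign with neither fit called. No alternative moved the median of all genes by more than 0.0741. Every averaged call on Gm45552 and Flt3l held, as did that of Fcgrt in Treg against Th0 (2.19 to 3.92).

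Leaving out the numbers WT 4, KO 2 and KI 3, Rpl13a in KI against WT was 0.32 and Rcn3 in Th1 against Th0 1.36, and 0 averaged genotype calls were left in place of 1. With the Cd8a level as a term there were 5 such calls: Fcgrt 1.83 and Rcn3 1.31 in KO against WT, Fcgrt -1.94 and Rcn3 -1.37 in KI against KO, beside Rpl13a. The median of Fcgrt over the WT libraries lay under the floor. With that term 1178 of all genes were called in KO against WT and 1229 in KI against KO, in place of 168 and 673. In KI against WT 3093 were called in place of 2825. That term also gave Rcn3 1.06 in Th1 against Th0 and -1.19 in Treg against Th1. With the replicate block of genotype and number Rcn3 was 1.10 in Th1 against Th0 and 0.96 in Treg against Th0. With it as a random block Rpl13a in KI against WT was 0.35, and 0 averaged genotype calls were left. The number as a block across genotypes changed no call on a member. Fcgrt in Treg against Th1 was 2.04 with no filter (adjusted p = 0.0512 by edgeR) and 2.02 by DESeq2. Taking 20 nearest genes each side gave 8 calls between genotypes in place of 5, an alternative added after seeing the data. The causes were not tested.

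Leaving out 1 library in turn, Fcgrt in Treg against Th1 ran from 1.36 to 3.79, Rcn3 in Th1 against Th0 from 0.52 to 1.98, where leaving out Th0 KI 3 gave a call (adjusted p = 0.0161 by edgeR), and the genotype calls within cultures from 0 to 2. The planned distance windows around the hairpin were not run, since the annotation did not match the table in full. Near the hairpin itself every M21 gene but Snord33 was in the table. At 0.0218 to 0.0493 CPM for 3 counts, depth limits Fcgrt and Mir150.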
